A study of Mus musculus with 10 samples.

Results

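The 10 transcription regulators described here are p63 (gene Trp63), the SNAIL factors Snai1 and Snai2, the TWIST factors Twist1 and Twist2, the ZEB factors Zeb1 and Zeb2, the SOX factors Sox9 and Sox10, and Id4. They were chosen by name. Each was represented on the array by 1 probe set annotated to that gene alone, and all 10 of 10 passed the filter on dim probe sets, among 15815 genes tested. Expression was measured in total RNA of sorted mouse mammary epithelial cells on 10 Affymetrix arrays, 1 per sample. Cells came from virgin female littermates aged 8 to 12 weeks, caged together, that were either control or Pygo2 SSKO. There were 4 arrays of control basal cells and 3 of SSKO basal cells, both from the lineage-negative, CD29-high, CD24-positive gate that also holds the mammary stem cells. A further 3 arrays held control mature luminal cells from the lineage-negative, CD29-low, CD24-positive, CD61-negative gate. The lineage markers used to remove endothelial, blood and erythroid cells were CD31, CD45 and TER119. The abbreviation SSKO is not explained in the labels, and the driver of the deletion and the number of animals behind each sample are not given in the sources used here, so a p-value here reflects only the spread among these arrays.

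As background, the mammary duct has an inner luminal and an outer basal, myoepithelial layer. p63 is the factor that stratified and basal epithelia depend on, and it activates basal keratins, integrins and laminins. SNAIL, ZEB and TWIST factors are best known from epithelial-mesenchymal transition, in which SNAIL and ZEB proteins bind E-box sequences in genes of cell junctions and polarity and repress them. Sox9 and Sox10 are related HMG-box factors tied to progenitor states in several epithelia and in the neural crest. Id4 is a helix-loop-helix protein that cannot bind DNA itself and holds other helix-loop-helix factors inactive.

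The arrays matched their labelled cell types. All 13 measured basal and myoepithelial markers (Trp63 left out) were lower in luminal than in control basal arrays, and all 12 measured mature luminal markers were higher, each at a limma adjusted p under 0.05. Pygo2, the deleted gene, had a log2 level of 8.60 ± 0.47 (SD, n = 4) in control basal and 6.26 ± 0.63 (SD, n = 3) in SSKO basal arrays, a difference of -2.34 (SE 0.32, limma adjusted p = 0.0441), although that call ended under several alternative fits (adjusted p from 0.0614 to 0.363 among the planned ones). Whether its probe set lies inside the deleted part was not determined. Endothelial markers were unevenly present despite the CD31 gate. Their mean log2 level over 12 genes ran from 8.25 to 9.83 in controls of the basal gate, from 8.09 to 10.77 in SSKO and from 8.01 to 8.40 in luminal cells. Fibroblast markers (11 genes) ran from 9.35 to 10.59, from 9.21 to 9.81 and from 7.31 to 7.81 in the same order. In bulk RNA of this kind, fewer cells of a type and less RNA per cell cannot be told apart.

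The first question was where these factors stand between the basal and luminal layers of control glands. Of the 10, 8 were lower in luminal than in control basal cells, 1 (Sox9) was higher and 1 (Snai1) did not pass. Over all genes tested, 44.3% were called in this comparison, 19.7% lower and 24.6% higher in luminal cells. The groups did not overlap for 8 of the 10, against 46.3% of all genes. The median log2 difference of the 10 was -1.26, against 0.07 over all genes. The sizes spanned a wide range. Id4 and Snai2 were lower by 38.4-fold and 28.3-fold, Trp63 by 8.27-fold, and the ZEB factors, Sox10 and the TWIST factors by 1.51-fold to 2.95-fold. Levels are log2(intensity + 16), and since the added 16 pulls dim signals together, a fold on that scale is too small for them.

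**Figure D1:**
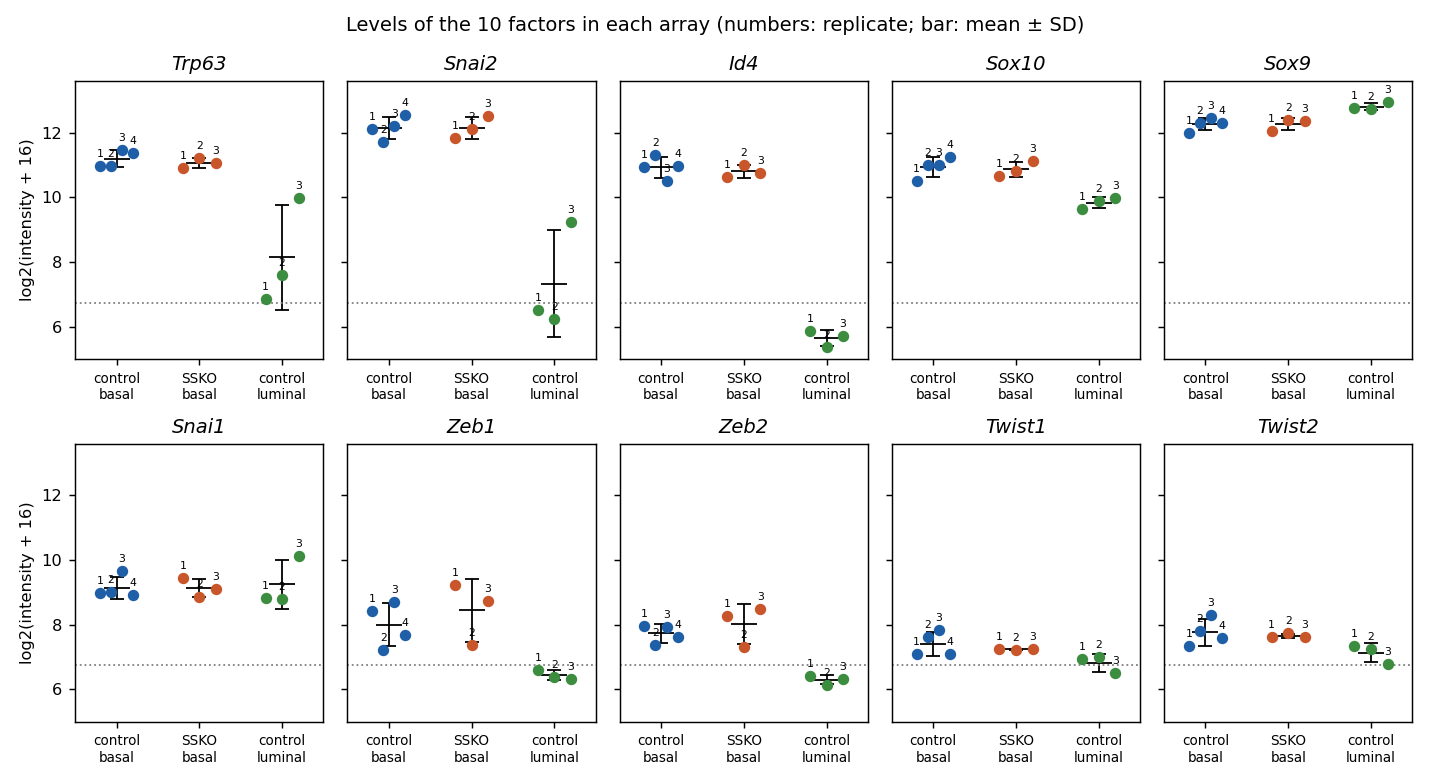
Level of each factor on each array, as log2(intensity + 16), for 4 arrays of control basal, 3 of SSKO basal and 3 of luminal cells. Numbers give the replicate, black bars the group mean ± SD, and the dotted line the mean log2 value of 6.74 under which probe sets were dropped. Id4 is uniformly low in the luminal arrays, while Trp63 and Snai2 are higher in luminal array 3 than in luminal arrays 1 and 2.

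Trp63 had log2 levels of 10.98, 10.96, 11.45 and 11.39 in control basal arrays 1 to 4. In luminal arrays 1 to 3 it was 6.86, 7.60 and 9.98. Both groups were fully separated, but luminal array 3 lay well above the other luminal arrays (group SD 1.63, against 0.26 in control basal arrays). The difference was -3.05 (SE 0.55, limma adjusted p = 0.000883). Without luminal array 3 it was -3.96 (SE 0.23, adjusted p = 4.48e-07).

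Snai2, which encodes the repressor Slug, had control basal levels of 12.12, 11.71, 12.21 and 12.56. Luminal arrays 1 to 3 gave 6.51, 6.24 and 9.23, so array 3 again stood above the other luminal arrays and still below every basal array. The difference was -4.82 (SE 0.58, limma adjusted p = 4.41e-05), and -5.77 (SE 0.25, adjusted p = 6.72e-08) without luminal array 3. The luminal arrays left in that fit lie under the filter level of 6.74, so the full size of that difference is not known.

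Id4 showed the widest separation of the 10. Control basal levels were 10.94, 11.31, 10.50 and 10.96, and luminal levels were 5.88, 5.38 and 5.73. No luminal array stood apart here, and the gap between the groups was 4.62. The difference was -5.26 (SE 0.19, limma adjusted p = 8.85e-09), the 33rd largest in size among the 15815 genes tested. The luminal mean of 5.66 lies under the filter level of 6.74, so the full size of the difference is not known.

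The RefSeq promoter table (build GRCm38.p6, windows of 300 bases around a gene's start) held windows for 5 of the 10 factors, namely Snai1, Twist1, Twist2, Zeb2 and Id4. They were searched for the SNAIL and ZEB E-box CACCTG and its reverse complement CAGGTG, which are the same site on opposite strands and belong to the wider CANNTG class. Of all 32851 windows in the table, 20.2% hold it. Among the factors it occurs only in the Snai1 window, once, with its first base at position -126 from the start. The Snai1 and Id4 windows are shown because these factors are the extremes of the luminal comparison, Snai1 with the smallest difference and Id4 with the largest. Capitals mark the E-box, and the Id4 window has none.
Snai1 (chr2:167537945-167538244, strand +): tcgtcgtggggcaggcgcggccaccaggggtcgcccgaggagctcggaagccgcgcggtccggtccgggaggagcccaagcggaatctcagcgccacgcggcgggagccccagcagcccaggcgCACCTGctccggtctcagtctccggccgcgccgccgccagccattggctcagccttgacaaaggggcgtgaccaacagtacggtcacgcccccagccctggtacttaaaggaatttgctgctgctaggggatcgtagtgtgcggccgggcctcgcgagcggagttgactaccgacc
Id4 (chr13:48260866-48261165, strand +): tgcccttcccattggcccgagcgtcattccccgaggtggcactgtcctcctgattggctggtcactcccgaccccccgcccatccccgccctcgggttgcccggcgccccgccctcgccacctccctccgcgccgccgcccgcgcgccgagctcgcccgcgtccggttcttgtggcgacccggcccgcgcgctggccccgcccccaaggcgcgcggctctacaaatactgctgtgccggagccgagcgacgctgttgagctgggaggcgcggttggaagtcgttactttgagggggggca

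The SOX factors diverged. Sox10 was 10.52, 10.99, 10.99 and 11.24 in control basal arrays and 9.64, 9.90 and 9.98 in luminal arrays. The groups did not overlap, and luminal array 3 was close to the other luminal arrays. The difference was -1.09 (SE 0.18, limma adjusted p = 0.000484), so luminal signal remained at 39.5% to 50.5% of the control basal mean on the intensity scale. Sox9, its close relative, ran the other way, with 12.01, 12.30, 12.45 and 12.30 in control basal and 12.76, 12.73 and 12.94 in luminal arrays. It was the only one of the 10 that was higher in luminal cells, by 0.55 (SE 0.14, limma adjusted p = 0.00766), and its groups did not overlap. Markers of other Sox10-expressing cell types were examined beside it. In control basal cells 4 of 9 melanocyte markers (Tyr, Tyrp1, Dct and Slc45a2) lay under the filter level by their means. Of the 5 melanocyte markers tested, 1 was higher and 1 lower in luminal cells and 3 did not pass (median difference 0.11). Ednrb ran from 8.45 to 9.86 in control basal and from 5.70 to 6.15 in luminal arrays. Kit went the other way, from 7.42 to 8.26 in control basal and from 10.33 to 11.28 in luminal arrays. Ednrb and Kit were named after their values were seen. The 8 measured Schwann cell markers had summed intensities of 9220 to 10619 in control basal, 9608 to 11511 in SSKO basal and 2422 to 2913 in luminal arrays. Pmp22, which other cells also express, fell from 12.82 to 9.28 in mean log2 level and carried most of that difference. Of the 7 tested, Pmp22 and Ngfr were lower in luminal cells, S100b, Mbp, Foxd3, Gap43 and L1cam did not pass, and the median difference was -0.01. Cdh19 lay under the filter level in control basal cells. The part of melanocytes and Schwann cells in the Sox10 result was not tested.

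Both ZEB factors were lower in luminal cells. Zeb1 read 8.43, 7.22, 8.69 and 7.67 in control basal arrays and 6.61, 6.39 and 6.32 in luminal arrays. Control basal arrays 1 and 3 were above arrays 2 and 4, and the luminal arrays lay close together (SD 0.15). The difference was -1.56 (SE 0.43, limma adjusted p = 0.0113). Zeb2 read 7.97, 7.38, 7.94 and 7.63 against 6.43, 6.15 and 6.32, with a difference of -1.43 (SE 0.26, limma adjusted p = 0.000791). Neither factor overlapped between the groups, and both luminal means (6.44 and 6.30) lie under the filter level of 6.74.

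Among the basal arrays, ZEB levels were higher where endothelial and pericyte markers were brighter. The 4 basal arrays with the highest Zeb1 were SSKO 1 (9.23), SSKO 3 (8.73), control 3 (8.69) and control 1 (8.43). Endothelial markers averaged 10.77, 9.76, 8.74 and 9.83 in these arrays and 8.09 to 8.54 in the other 3 basal arrays, where Zeb1 was 7.22 to 7.67. Zeb2 was highest in the same 4 arrays, at 7.94 to 8.50, against 7.32 to 7.63 in the rest. Pericyte and vascular smooth muscle markers divided the basal arrays in the same way, at 8.65 to 8.98 in these 4 and 8.42 to 8.58 in the other 3. Control array 3 also had the highest fibroblast marker level, 10.59, of all arrays. In a fit without control array 1 and SSKO arrays 1 and 3, chosen once these values were known, the luminal differences were -1.42 for Zeb1 (limma adjusted p = 0.00969) and -1.35 for Zeb2 (0.000524). Leaving out control array 3 as well gave -1.004 (0.00787) and -1.20 (0.00217). The part of these cell types in the ZEB differences was not tested.

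**Figure D2:**
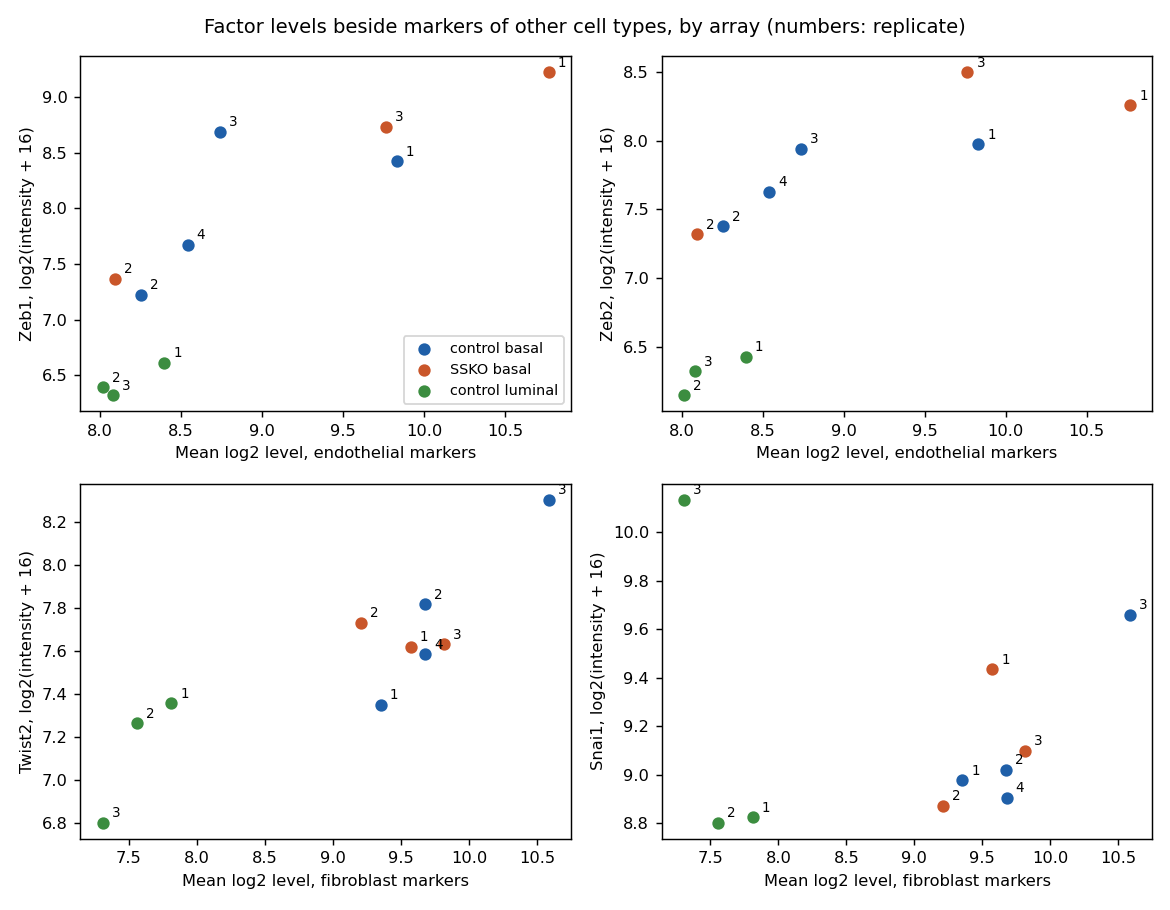
Levels of Zeb1 and Zeb2 against the mean log2 level of 12 endothelial markers (top), and of Twist2 and Snai1 against that of 11 fibroblast markers (bottom), with 1 point per array and the replicate number beside it. SSKO array 1 has the highest endothelial level (10.77) and the highest Zeb1 (9.23), and control array 3 has the highest fibroblast level (10.59) and the highest Twist2 (8.31).

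Zeb1 and Zeb2 are the classic targets of the miR-200 family, which is grouped by its seed (bases 2 to 8, in capitals). The mature sequences are shown since hairpin genes of this family could be set beside the ZEB values. They are taken from RefSeq (GRCm38.p6), and the first 3 share 1 seed and the last 2 another.
mmu-miR-200b-3p: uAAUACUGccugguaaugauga
mmu-miR-200c-3p: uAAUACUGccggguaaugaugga
mmu-miR-429-3p: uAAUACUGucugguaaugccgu
mmu-miR-200a-3p: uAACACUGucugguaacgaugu
mmu-miR-141-3p: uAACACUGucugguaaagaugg
The probe sets named for the hairpin genes were chosen after their values had been seen and do not measure the mature miRNAs. Mir200a, Mir200b and Mir200c passed the filter, with luminal minus control basal differences of 0.00 (SE 0.16), -0.09 (SE 0.19) and 0.11 (SE 0.22), none past the test (limma adjusted p from 0.749 to 0.997). Mir141 lay under the filter level. In the fit with no filter its difference was 0.02 (SE 0.16, limma adjusted p = 0.946).

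The TWIST factors had small differences between the layers, and Snai1 had none past the test. Twist1 was 7.08, 7.61, 7.84 and 7.10 in control basal arrays and 6.95, 6.99 and 6.50 in luminal arrays. Twist2 was 7.35, 7.82, 8.31 and 7.59 against 7.36, 7.26 and 6.80, so its groups touched at control array 1 and luminal array 1. The differences were -0.59 (SE 0.20, limma adjusted p = 0.0311) for Twist1 and -0.62 (SE 0.21, limma adjusted p = 0.0333) for Twist2. Both calls were fragile, and each ended when control array 2 or 3 or luminal array 3 was left out, with adjusted p from 0.0650 to 0.135, and the Twist2 call also ended without luminal array 2 (0.0533). Control array 3, the brightest for fibroblast markers, was also the highest array for both TWIST factors, and the part of fibroblasts in these differences was not tested. Snai1 was 8.98, 9.02, 9.66 and 8.91 in control basal arrays and 8.83, 8.80 and 10.13 in luminal arrays. Its groups overlapped and the difference of 0.11 (SE 0.31, 95% interval -0.58 to 0.80) did not pass (limma adjusted p = 0.817). Luminal array 3 alone lifted the luminal mean, and without it the difference was -0.33 (adjusted p = 0.286).

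Luminal array 3 carried more basal signal than the other luminal arrays, to a degree that differed between genes. All 13 measured basal markers were highest in it among the luminal arrays. Of the 10 factors, 5 were also highest there (Trp63, Snai1, Snai2, Sox9 and Sox10), while Id4 was not. Snai1 and Sox9 stood there at 197% and 159% of the control basal mean intensity, above that mean, which no basal marker reached. Relative to the same mean, luminal array 3 stood at 42.1% for Trp63 and 12.6% for Snai2, but at 1.88% for Id4. The other luminal arrays were at 4.25% and 7.56% for Trp63, at 1.62% and 1.29% for Snai2 and at 2.17% and 1.31% for Id4. Basal keratins in array 3 stood at 32.4% for Krt5, 37.3% for Krt14 and 23.6% for Krt17, against at most 5.35% in luminal arrays 1 and 2. Contractile genes were also highest in array 3 but mostly at small shares, with 3.07% for the myosin Myh11 (1.45% and 0.838% in arrays 1 and 2), 2.59% for Mylk (1.97% and 1.06%) and 3.32% for the calponin Cnn1 (2.61% and 1.12%). Acta2 was at 17.6% (6.59% and 6.22%). The cadherin Cdh3 stood at 12% (2.69% and 1.46%), the R-spondin receptor Lgr5 at 10.4% (4.65% and 1.22%) and the oxytocin receptor Oxtr at 8.88% (3.40% and 2.86%). Mature luminal markers averaged 12.96 in array 3, against 12.99 and 12.89 in luminal arrays 1 and 2. These genes were picked out after the pattern had been seen.

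**Figure D3:**
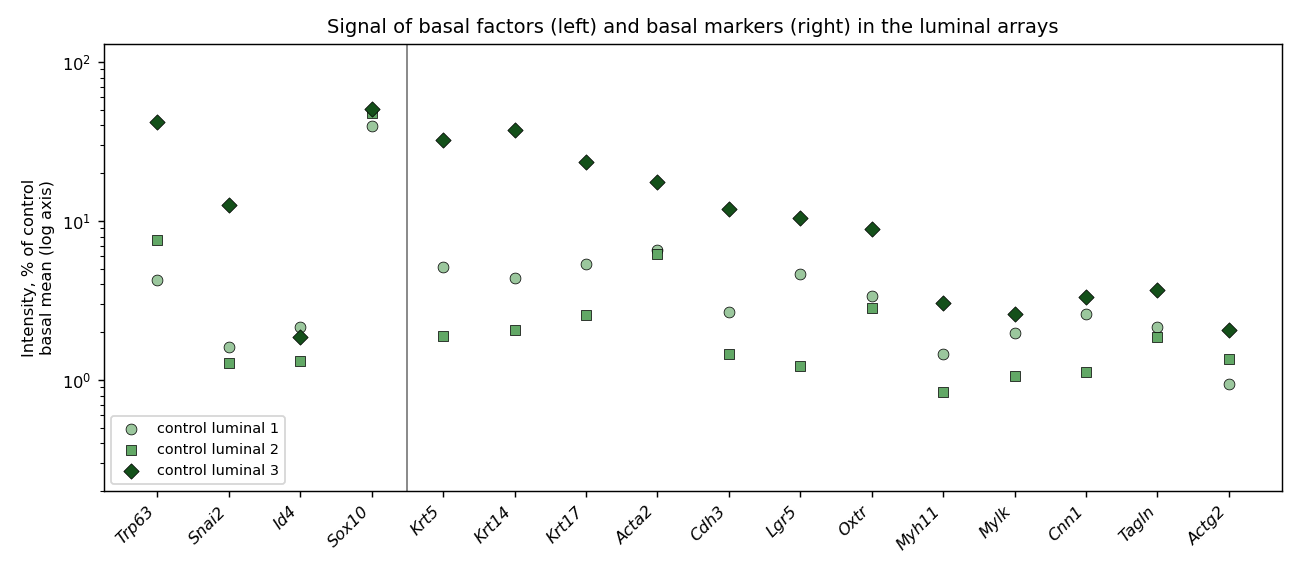
Intensity in each of the 3 control luminal arrays as a percentage of the mean of the 4 control basal arrays, on a log axis, for 4 of the factors (left of the line) and 12 basal markers (right). Luminal array 3 (diamonds) is at 42.1% for Trp63 and 37.3% for Krt14, but at 1.88% for Id4 and 2.59% for Mylk.

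The second question was whether these factors change in basal cells that lack Pygo2. None of the 10 was called with limma, 0 of 10 had an unadjusted p under 0.05 (3.03% of all genes did), and no factor separated the SSKO from the control basal arrays. Of all genes tested, 0.0379% were called and 4.46% had groups that did not overlap. The median log2 difference of the 10 was -0.04, against 0.01 over all genes, and 4 of 10 lay above 0. The 10 fitted differences ran from -0.17 (Twist1) to 0.44 (Zeb1), all with limma adjusted p of 0.9998.

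Trp63 was 10.90, 11.22 and 11.08 in SSKO arrays 1 to 3, within the control range apart from array 1, which lay just below it. Its difference was -0.13, with a 95% interval of -1.34 to 1.09 in the fit to all arrays. That interval is wide because the luminal spread enters the shared estimate, and in a fit to the basal arrays alone the SE fell from 0.55 to 0.17. Snai2 was 11.84, 12.12 and 12.52 in SSKO arrays, with a difference of 0.01 (SE 0.58, or 0.22 in the basal arrays alone). Id4 was 10.64, 11.01 and 10.76, with a difference of -0.12 (95% interval -0.55 to 0.30).

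Sox9 read 12.05, 12.39 and 12.36 in SSKO arrays, inside the control range. Its difference of 0.01 had the narrowest interval of the 10, -0.30 to 0.31. Sox10 read 10.66, 10.82 and 11.13, with a difference of -0.07 (95% interval -0.47 to 0.33). Snai1 read 9.44, 8.87 and 9.10, with a difference of 0.00 (95% interval -0.70 to 0.69). All 3 SSKO values of Twist1 (7.24, 7.21 and 7.26) and of Twist2 (7.62, 7.73 and 7.63) lay inside the control ranges, with differences of -0.17 (95% interval -0.61 to 0.27) and -0.10 (-0.57 to 0.37).

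The ZEB factors had the largest positive differences of the 10. Zeb1 was 9.23, 7.37 and 8.73 and Zeb2 was 8.26, 7.32 and 8.50 in SSKO arrays 1 to 3, so arrays 1 and 3 were high, while array 2 was near the lowest control array for Zeb1 and below all control arrays for Zeb2. The differences were 0.44 (95% interval -0.50 to 1.38) and 0.30 (95% interval -0.27 to 0.86), neither past the test. In the same comparison markers of some other cell types lay mostly above 0 and those of fibroblasts mostly below, with none called. Above 0 were 11 of 12 endothelial (median 0.71), 8 of 8 adipocyte (median 0.38) and 5 of 8 pericyte and vascular smooth muscle markers (median 0.43). Of the fibroblast markers, 2 of 10 were above 0 (median -0.37). The part of these cell types in the ZEB differences was not tested. With control array 1 and SSKO arrays 1 and 3 left out, the differences were -0.50 and -0.33, a sign set by that choice of arrays, which removes the SSKO arrays highest for both factors and leaves only array 2.

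**Figure D4:**
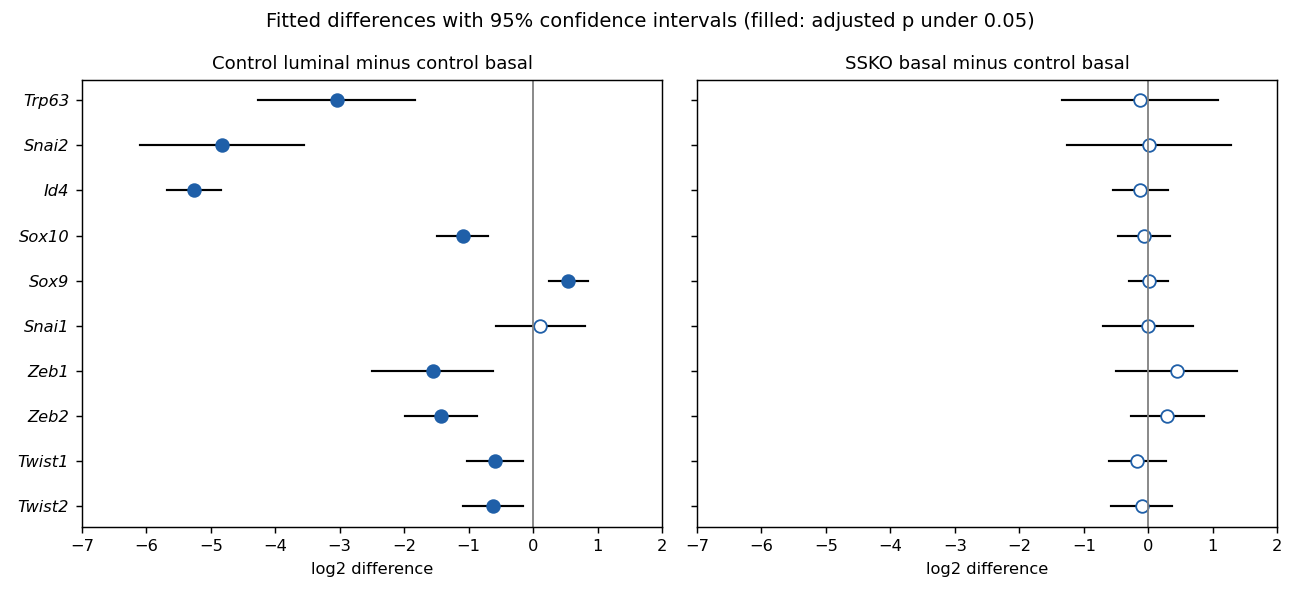
Fitted log2 difference of each factor with its 95% confidence interval, for control luminal minus control basal (left) and SSKO basal minus control basal (right), from 1 fit to all 10 arrays. Filled points have a limma adjusted p under 0.05, which holds for 9 of 10 factors on the left and 0 of 10 on the right.

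SSKO basal cells were also compared with luminal cells. Set against the control luminal arrays, which are shared with the first comparison, 7 of 10 factors were called, 6 higher and Sox9 lower in SSKO basal cells, where 42.3% of all genes were called, 19% higher and 23.3% lower. The groups did not overlap for 9 of 10 factors, against 54.4% of all genes. The log2 differences were 5.14 for Id4 (SE 0.21), 4.83 for Snai2 (SE 0.62), 2.92 for Trp63 (SE 0.59), 2.00 for Zeb1 (SE 0.46), 1.73 for Zeb2 (SE 0.27), 1.03 for Sox10 (SE 0.19) and -0.54 for Sox9 (SE 0.15). Twist1 (0.42, limma adjusted p = 0.142), Twist2 (0.52, 0.0904) and Snai1 (-0.12, 0.824) did not pass. The Sox9 call ended without SSKO array 1 (-0.43, limma adjusted p = 0.0574). Fits without control array 1 and SSKO arrays 1 and 3, with or without control array 3, leave only SSKO array 2 in its group. Such fits cannot show whether a call holds. Their differences were 0.92 for Zeb1, -0.42 for Sox9 and 3.07 for Trp63.

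Genes known as p63 targets mostly lay on the same side as Trp63 between the layers. Their list does not say which of them p63 activates and which it represses. Of 25 tested, 20 were lower and 1 higher in luminal cells, with a median log2 difference of -2.05. The share called was 84%, against 44.3% of all genes. Krt5, Krt14 and Itga6 are also on the list of basal markers, so these lists hold partly the same values. The 4 with the smallest p were Igfbp3, a binding protein for insulin-like growth factors, at -5.66 (SE 0.29), the laminin chain Lamb3 at -3.40 (SE 0.18), the Notch ligand Jag1 at -1.86 (SE 0.11) and the ERBB ligand Nrg1 at -4.94 (SE 0.30), each with a limma adjusted p under 0.05. The luminal mean of Nrg1 (6.13) lies under the filter level, so its full difference is not known. The exception, named after its values were seen, was the FGF receptor Fgfr2, higher by 0.96 (SE 0.12). In SSKO basal cells none of the 25 was called (median -0.02). As for Trp63, the luminal spread enters the SE here, which was 0.67 for Krt5 and 0.70 for Krt14. The largest difference was that of Dsg3, at -0.73 (SE 0.92). Krt5, Krt14 and Dsg3 were named after their values were seen. The kinase Ripk4 and the matrix protein Fras1 had the smallest p, with differences of -0.26 (SE 0.13) and -0.50 (SE 0.30). Against luminal cells, 20 were higher and 1 lower in SSKO basal cells.

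Epithelial genes known to be repressed by SNAIL and ZEB factors ran opposite to Snai2. Of 28 tested, 23 were higher and 1 lower in luminal cells, with a median of 2.36. The share called was 85.7%, against 44.3% of all genes. Cingulin (Cgn), Marveld3, Cldn3 and Tjp3, all tight junction genes, were higher by 3.28, 3.33, 3.43 and 3.27 (SE 0.12 to 0.13). The adherens junction gene Cdh1, the best known SNAIL and ZEB target, was higher by 0.60 (SE 0.13, limma adjusted p = 0.00305) with a mean level of 12.35 in control basal cells. The exception was the desmosome gene Dsp, with a difference of -0.72 (SE 0.15). Cdh1 and Dsp were named after their values were seen. In SSKO basal cells none of the 28 was called and 20 lay above 0 (median 0.09). Krt19 and Cldn3 had the smallest p, with differences of 1.44 (SE 0.22, limma adjusted p = 0.0934) and 0.59 (SE 0.13, 0.659). Mature luminal markers lay the same way, with 11 of 12 above 0 and 1 called (median 0.56), and summed intensities of 26473 to 30475 in SSKO against 16816 to 23018 in control basal arrays. The lists share 5 genes (Krt8, Krt18, Krt19, Cldn3 and Cldn4), so these counts are partly the same values. Their part in the epithelial differences was not tested. Set against luminal cells, 1 of 28 was higher and 23 lower in SSKO basal cells.

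Promoter windows were held for 18 of these 28 genes, and 14 of the 18 (77.8%) hold CACCTG or CAGGTG in at least 1 window, against 22.6% of the 27025 genes in the table. The list was drawn from genes known as SNAIL and ZEB targets, so this share is no independent evidence. For the p63 targets it was 7 of 14 genes (50%). Of the 14 epithelial genes with the site, 13 were called higher in luminal cells and 1 (Dsp) lower. Of the 4 without it (Cgn, Grhl1, Ovol2 and Spint1), 3 were called higher, and the median differences were 2.56 with and 2.40 without the site. Some windows with the site, chosen after the search, are printed with capitals at each match. Cldn4, Cldn7, Epcam and Ocln also have a window with 2 matches, which is not printed. The printed windows belong to the clathrin adaptor gene Ap1m2 with 4 matches, the polarity gene Crb3 with 4 and the small GTPase gene Rab25 with 2.
Ap1m2 (chr9:21312284-21312583, strand -): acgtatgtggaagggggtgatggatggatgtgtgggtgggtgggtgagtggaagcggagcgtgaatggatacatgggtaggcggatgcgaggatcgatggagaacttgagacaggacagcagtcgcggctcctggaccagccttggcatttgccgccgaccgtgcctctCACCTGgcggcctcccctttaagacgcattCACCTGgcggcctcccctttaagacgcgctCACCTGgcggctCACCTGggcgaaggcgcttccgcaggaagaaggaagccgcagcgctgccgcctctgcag
Crb3 (chr17:57061951-57062250, strand +): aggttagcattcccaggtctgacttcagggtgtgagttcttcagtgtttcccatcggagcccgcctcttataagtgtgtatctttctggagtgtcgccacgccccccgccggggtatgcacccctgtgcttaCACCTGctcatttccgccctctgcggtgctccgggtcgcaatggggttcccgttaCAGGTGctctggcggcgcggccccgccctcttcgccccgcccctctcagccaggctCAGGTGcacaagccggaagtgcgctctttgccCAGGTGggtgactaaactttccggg
Rab25 (chr3:88548230-88548529, strand -): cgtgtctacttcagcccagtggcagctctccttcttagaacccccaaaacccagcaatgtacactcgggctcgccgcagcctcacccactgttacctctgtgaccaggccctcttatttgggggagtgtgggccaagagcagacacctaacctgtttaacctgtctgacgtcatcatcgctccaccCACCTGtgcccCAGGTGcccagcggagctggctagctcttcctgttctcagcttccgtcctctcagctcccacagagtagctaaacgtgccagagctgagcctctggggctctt
In luminal cells these genes were higher by 1.86 (SE 0.18) for Ap1m2, 2.43 (SE 0.16) for Crb3 and 2.91 (SE 0.29) for Rab25.

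Mesenchymal genes of the transition programme were on the basal side. Of 19 tested, 15 were lower in luminal cells and none was higher, with a median of -2.87. The share called was 78.9%, against 44.3% of all genes. The cadherins Cdh11 and Cdh2 had differences of -4.24 (SE 0.14) and -4.18 (SE 0.19), the matrix protein Sparc of -3.48 (SE 0.17) and vimentin (Vim) of -2.87 (SE 0.15). The luminal means of Cdh11 (6.16) and Cdh2 (5.31) lie under the filter level, so the full size of their differences is not known. Fibroblast markers moved the same way, with 9 of 10 tested lower in luminal cells and 1 higher, and 4 of 11 measured (Pdgfra, Lum, Dpt and Pi16) under the filter level there. The lists share 3 genes (Col1a1, Col1a2 and Col3a1). Their part in these differences was not tested. In SSKO basal cells none of the 19 was called (median -0.09), with Tnc at 1.39 (SE 0.60) and Prrx1 at -0.48 (SE 0.23) of smallest p. Against luminal cells, 17 of 19 were higher in SSKO basal cells.

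**Figure D5:**
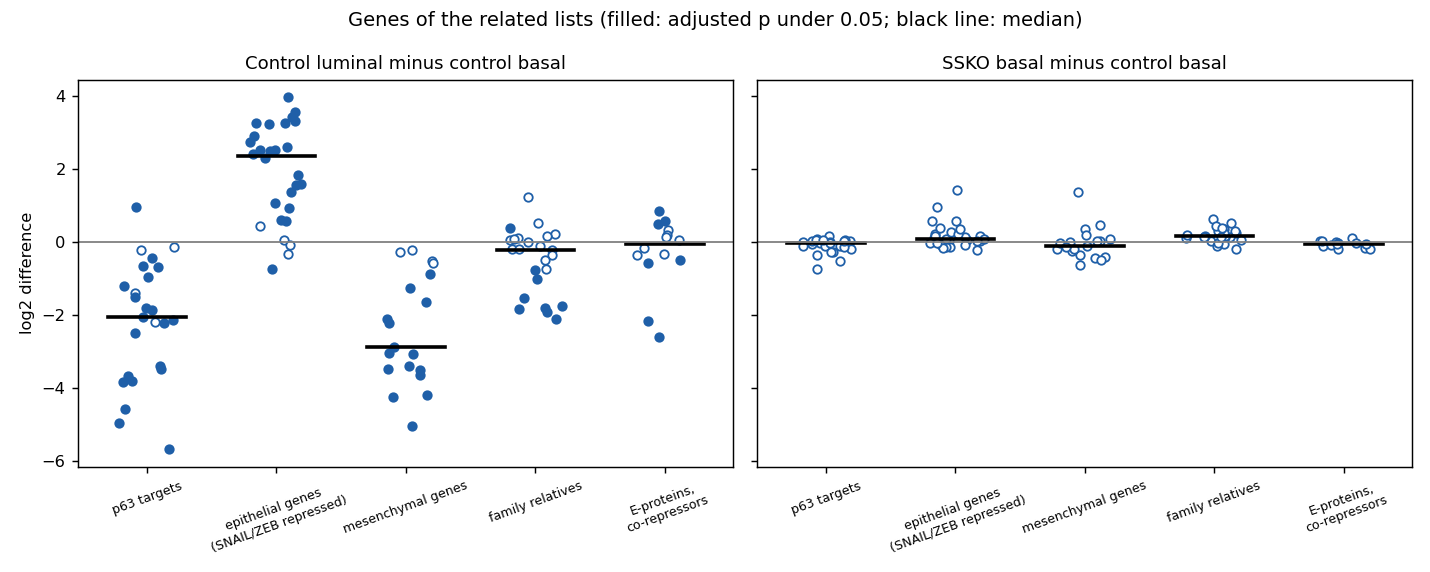
Log2 differences of genes in 5 related lists, for control luminal minus control basal (left) and SSKO basal minus control basal (right), with 1 point per gene, filled at a limma adjusted p under 0.05, and a black line at the list median. On the left the p63 targets lie around a median of -2.05 and the SNAIL- and ZEB-repressed epithelial genes around 2.36, and on the right no point is filled.

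Among 24 relatives of the factors tested, 8 were lower and 1 higher in luminal cells (median -0.20). The share called, 37.5%, was below the 44.3% of all genes. The helix-loop-helix factor Scx differed by -2.09 (SE 0.22), Sox8, the third member of the Sox9 and Sox10 subgroup, by -1.89 (SE 0.25), Sox4 by -1.54 (SE 0.23) and Id1 by -1.79 (SE 0.28). Sox15, named after its value was seen, was the gene that was higher, by 0.38 (SE 0.12). Snai3, the remaining SNAIL gene, had a difference of -0.34 (SE 0.22) and did not pass. In SSKO basal cells none of the 24 was called and 20 lay above 0 (median 0.16), with Sox13 at 0.27 (SE 0.10) and Id3 at 0.40 (SE 0.20) of smallest p. Against luminal cells, 9 were higher and none was lower.

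Of 14 E-proteins and co-repressors, which work with these factors, 3 were higher and 4 lower in luminal cells (median -0.05). The share called, 50%, was near the 44.3% of all genes. Wtip and Ajuba, LIM-domain proteins that bind SNAIL, differed by -2.59 (SE 0.19) and -2.15 (SE 0.37). The histone deacetylase Hdac1 and the chromatin remodeller Smarca4 were higher by 0.85 (SE 0.14) and 0.50 (SE 0.10). In SSKO basal cells none of the 14 was called (median -0.04), with Rcor1 at -0.15 (SE 0.11) and Hdac1 at -0.18 (SE 0.14) of smallest p. Against luminal cells, 3 were higher and 3 lower.

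Likeness of profile was measured as the root mean square difference between 2 log2 profiles over the 10 arrays, each centred on its own mean. Among the factors, the closest pair was Twist1 and Twist2 (0.10), followed by Zeb1 and Zeb2 (0.33). Snai1 and Snai2 differed by 2.33, and Snai2 differed by 2.19 from Twist1 and by 2.57 from Sox9. The measure depends on how much each profile varies. Profiles that vary little, such as those of the TWIST factors, lie close to each other. They lie far from one that varies much, such as that of Snai2. Genes nearest to Trp63 were Apoe (0.33), Clmp (0.34) and Egr2 (0.35), and those nearest to Snai2 were Irx4 (0.27), the basal cadherin Cdh3 (0.30) and the tropomyosin Tpm2 (0.35). Nearest to Id4 were the potassium channel Kcnq5 (0.24), the calcium channel subunit Cacna2d1 (0.25) and podoplanin, Pdpn (0.26). Zeb1 lay nearest to Ecm2 (0.26), Fmo1 (0.27) and Dock10 (0.31), and Zeb2 to Sgce (0.17), Enpep (0.19) and Dock10 (0.20). For Sox9, Sox10, Snai1, Twist1 and Twist2, whose profiles vary little, between 3696 and 10531 genes lay within 0.5, so their nearest genes say little. They were Tsc2 (0.07), Zmiz1 (0.07) and Hs1bp3 (0.07) for Sox9, Atl1 (0.12), Wwtr1 (0.13) and Rab8b (0.14) for Sox10, Slc15a1 (0.17), Gsta3 (0.21) and Hoxd10 (0.24) for Snai1, Ucn2 (0.11), Col6a6 (0.12) and Il16 (0.13) for Twist1, and Il16 (0.13), Pnldc1 (0.14) and Ptgis (0.15) for Twist2.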

How the data were processed

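Total RNA was measured on 10 arrays. The authors deposited 1 linear intensity per probe set and array for 28815 probe sets, with Affymetrix Expression Console 1.1 and PLIER 2.0 listed, in no stated role, by the submitters' processing notes. The labels do not state any normalization between arrays. Array medians lay between 205 and 228, no detection calls were used, and a low value is a low signal, not absence. The number of arrays limits the precision.

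Probe sets with exactly 1 gene symbol in the platform annotation (21780) were named, and 21689 symbols matched the current RefSeq gene table by gene ID. Values were taken as log2(intensity + 16). The dimmest 25% of probe sets by mean over all arrays were dropped (mean under 6.74), and the brightest probe set stood for a gene, leaving 15815 genes. All arrays entered 1 limma 3.58.1 model of 3 groups (R 4.3.3, lmFit and eBayes, 7 residual degrees of freedom). Tests were two-sided, with Benjamini-Hochberg adjustment across the genes tested. Figures used matplotlib 3.10.9. Simulated data served as a test, where 50 of 15815 genes per size were changed. In the SSKO comparison 14% of changes of 0.5 log2 units, 78% of 1 and 96% of 2 were recovered, and in the luminal comparison 20%, 74% and 98%. In both comparisons 9 of the 10 factors had an SE above the median of 0.16 over all genes. These shares therefore need not hold for the factors.

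The factors and gene lists were chosen with earlier results of these data known. Named genes were all factors, the 3 nearest genes to each by profile, and from each related list the 4 called genes of smallest p or, where none was called, the 2 of smallest p. Other names are said to have been chosen after their values were seen. Alternatives covered the pseudocount, the filter, normalization, probe set choice, the arrays fitted, the replicate number as a block, the variance model, array weights and leaving out arrays.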

Additional observations from a re-analysis of the deposited data

Results flagged for a closer look

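Snai1 in control basal array 3 was set apart from the other control basal arrays. Its log2 level was 9.66, against 8.91 to 9.02 in the other 3, and its gap was 0.847 of the range of the group, above Dixon's 95% critical value for 4 samples. This was 1 of 11 such sets examined (the 10 factors and Pygo2), and chance flags about 1 in 20. The same array had the highest mean level of fibroblast markers, 10.59, and the highest Twist1 (7.84) and Twist2 (8.31). The part of fibroblasts in the Snai1 value was not tested.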

How the results depend on the processing

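In the luminal comparison, 164 of 176 alternative values of the 10 factors from the planned settings kept their direction and their side of the threshold, 10 lost the call (all Twist1 or Twist2) and 2 turned (both Snai1). The Twist1 and Twist2 calls ended when only the groups compared were fitted (adjusted p = 0.0596 and 0.0616), and the Twist2 call with the replicate number as a block (0.0529). Without control arrays 1 and 3 and SSKO arrays 1 and 3, added after seeing the data, both ended too (0.125 and 0.0860). Snai1 turned to -0.17 with array weights, and to 0.13 in SSKO basal minus control luminal, and ran from -0.33 to 0.34 and from -0.34 to 0.32 when 1 array was left out. In SSKO basal minus control luminal, Twist2 passed in a fit to those groups alone (adjusted p = 0.0328). In the SSKO comparison no factor was called under any setting, and 19 of 176 planned values turned in sign around 0. Snai2 turned to -0.024 after quantile normalization, -0.037 with centred arrays and -0.041 with array weights, Sox9 to -0.021 and -0.041 in the first 2 of these, and Sox10 to 0.035 with the block. Leaving out 1 array gave -0.15 to 0.17 for Snai1, -0.17 to 0.17 for Snai2, -0.24 to 0.077 for Twist2, -0.08 to 0.11 for Sox9, -0.21 to 0.037 for Sox10 and -0.27 to 0.0047 for Id4. Without control array 1 and SSKO arrays 1 and 3, Snai2 turned to -0.039, Zeb1 to -0.50, Zeb2 to -0.33 and Id4 to 0.088. With control array 3 left out as well, Trp63 turned to 0.044, Snai2 to -0.012, Twist2 to 0.030, Zeb1 to -0.082 and Zeb2 to -0.18. The cause of these changes was not tested.

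Genes called in the SSKO comparison numbered 6, and 3 after quantile normalization. The count was 1 to 27 when 1 array was left out, the low end being 2 for control array 2 and 1 for SSKO array 3 omitted, and the high end 27 for SSKO array 2. It was 0 with limma in both added fits (214 and 188 genes at an unadjusted p under 0.05), which leave 1 SSKO array. In SSKO basal minus control luminal, the count of 6682 went to 4031 and 3613 in these fits, which have fewer samples. Leaving out 1 array gave 5631 to 6328 there and 5983 to 7023 in the luminal comparison.

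A fit that blocked on replicate number called 5, 6962 and 6893 genes in the SSKO, luminal, and SSKO against luminal comparisons. The numbers are not known to pair the samples. Deviations of same-numbered SSKO and control basal arrays correlated at 0.635, 0.464 and 0.0473 across genes, and SSKO array 3 correlated best with control array 4 (0.427). Same-numbered luminal and control basal arrays correlated at -0.081, -0.0792 and -0.0604. Without detection calls, levels near or under 6.74 bound how far the luminal values of Id4, Zeb1 and Zeb2 can be read.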

Other observations

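The hairpin gene Mir205, whose mature miRNA also targets Zeb1 and Zeb2, was looked at after its values had been seen. Its probe set was dropped because its mean over all arrays lay under the filter level of 6.74. Log2 levels (mean ± SD) were 6.74 ± 0.16 over the 4 control basal arrays and 6.85 ± 0.13 over the 3 SSKO arrays. Over the 3 luminal arrays the level was 5.70 ± 0.03. In the fit with no filter its luminal minus control basal difference was -1.04 (SE 0.12, limma adjusted p = 4.34e-05), and its SSKO minus control basal difference of 0.10 (SE 0.12) did not pass. Mir205 thus lay on the same side of the layer difference as Zeb1 and Zeb2, and the level of the mature miRNA was not measured.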
